A study of Mus musculus with 2 samples.

Results

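The core of the Hippo pathway was described in TUBO cells through 10 genes: the transcriptional coactivator genes Yap1 and Wwtr1, the DNA-binding factor genes Tead1, Tead2, Tead3 and Tead4, the kinase genes Lats1 and Lats2, and the upstream genes Nf2 and Sav1. They were chosen by name, with earlier results of these data known, and all 10 were found among the 31017 genes of the count table. TUBO is a cloned mouse mammary carcinoma line from a BALB/c mouse that carried an activated rat Her2/neu transgene driven by a mammary tumour virus promoter. Its cells grew flat on plastic without treatment. Both libraries, made from total RNA with a stranded mRNA kit, belong to 1 group, and with no second condition the results are levels and the differences between the 2 libraries.

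In the mammalian Hippo pathway, the kinases MST1 and MST2, with the scaffold protein SAV1 (the product of Sav1), activate LATS1 and LATS2, with help from merlin, the product of Nf2. LATS kinases phosphorylate YAP (Yap1) and TAZ (Wwtr1), which holds them in the cytoplasm or sends them to degradation. YAP and TAZ that reach the nucleus bind TEAD factors and raise transcription of growth and matrix genes, and in mammary epithelium this output responds to cell density, junctions and stiffness of the surface. Phosphorylation and location of these proteins are not measured by RNA counts.

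The 4 TEAD genes encode close relatives, so 1 stretch of 50 coding bases is shown to give an idea of how well reads can be told apart. Among ungapped stretches within 1 exon of each gene, it is the most alike over all 4 genes. It lies in exon 2 of the transcript with the longest coding sequence of each gene, on chromosome 7 from 112759537 to 112759586 for Tead1 (plus strand), on chromosome 7 from 45217348 to 45217397 for Tead2 (plus strand), on chromosome 17 from 28341402 to 28341451 for Tead3 (minus strand) and on chromosome 6 from 128270921 to 128270970 for Tead4 (minus strand), all in GRCm38. Capitals mark bases that differ from Tead1.
Tead1: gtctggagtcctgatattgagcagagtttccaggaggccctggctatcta
Tead2: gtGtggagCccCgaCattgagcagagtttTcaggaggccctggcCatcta
Tead3: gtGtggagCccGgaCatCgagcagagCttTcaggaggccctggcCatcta
Tead4: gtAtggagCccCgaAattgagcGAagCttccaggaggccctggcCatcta
Here Tead2 differed from Tead1 at 6 bases and Tead3 and Tead4 each at 8, and 40 of the 50 columns were the same in all. Single pairs can be more alike elsewhere, since Tead3 and Tead4 shared 10 whole windows of 50 bases. Over aligned coding bases the TEAD pairs were 71.2% (Tead1 and Tead2) to 74.7% (Tead3 and Tead4) identical, with Tead3 and Tead4 sharing the longest exact run, of 59 bases. Yap1 and Wwtr1 were 67.8% identical with no run over 15 bases, and Lats1 and Lats2 were 67.2% identical with no run over 22 bases. Of all 50-base windows of its transcripts, each of the 10 genes shared 1.35% or less with transcripts of other genes, except Lats2 (41.2%) and Sav1 (24.7%), which overlap other genes.

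The promoters of both coactivator genes and of both LATS genes are shown because the text compares levels within these pairs, and because Lats2 is a known target of YAP and TAZ in mammals. Each window runs from 250 bases before to 50 bases after a start site of the RefSeq annotation (GRCm38.p6), and all 300 bases are given on the strand of the gene. Capitals mark GGAATG, the core of the TEAD binding motif, which was searched on both strands (CATTCC is its reverse complement).
Yap1, chr9:8004547-8004846, minus strand: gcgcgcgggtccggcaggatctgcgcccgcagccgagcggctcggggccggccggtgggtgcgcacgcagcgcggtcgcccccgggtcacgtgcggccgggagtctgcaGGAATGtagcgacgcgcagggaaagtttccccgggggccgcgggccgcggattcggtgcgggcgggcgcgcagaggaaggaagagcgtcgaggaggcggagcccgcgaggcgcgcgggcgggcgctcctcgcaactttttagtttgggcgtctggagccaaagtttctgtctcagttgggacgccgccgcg
Wwtr1, chr3:57575861-57576160, minus strand: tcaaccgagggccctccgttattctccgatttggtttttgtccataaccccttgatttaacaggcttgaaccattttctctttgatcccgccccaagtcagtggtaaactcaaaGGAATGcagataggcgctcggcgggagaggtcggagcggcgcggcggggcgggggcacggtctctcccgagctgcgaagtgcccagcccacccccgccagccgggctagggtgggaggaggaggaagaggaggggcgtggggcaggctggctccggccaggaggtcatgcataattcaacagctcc
Lats1, chr10:7680959-7681258, plus strand: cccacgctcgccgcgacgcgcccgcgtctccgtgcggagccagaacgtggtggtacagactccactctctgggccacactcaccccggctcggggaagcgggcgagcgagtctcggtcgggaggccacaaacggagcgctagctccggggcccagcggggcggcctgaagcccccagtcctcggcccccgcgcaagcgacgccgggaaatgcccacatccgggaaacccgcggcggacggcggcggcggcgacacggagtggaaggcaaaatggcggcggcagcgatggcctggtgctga
Lats2, chr14:57746074-57746373, minus strand: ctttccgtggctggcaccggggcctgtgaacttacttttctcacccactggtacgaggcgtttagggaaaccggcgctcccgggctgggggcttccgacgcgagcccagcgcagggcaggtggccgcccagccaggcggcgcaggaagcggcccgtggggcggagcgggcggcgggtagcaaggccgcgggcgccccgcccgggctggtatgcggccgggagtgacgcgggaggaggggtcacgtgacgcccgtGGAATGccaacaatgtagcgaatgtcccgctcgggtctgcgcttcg
In the windows shown, the match began at position -141 from the start site in Yap1, at -136 in Wwtr1 and at position 5 past it in Lats2. These letters were not in the Lats1 window. Another Lats2 window, on chromosome 14 from 57734369 to 57734668 and not shown, held no match either. Of the 8 members with a RefSeq window, Yap1, Wwtr1, Sav1, Lats2 and Tead3 held the motif in at least 1 window, 5 in all. Among all 27025 genes with a window 16.6% did, and among all 32851 windows 14.7%. Several genes have overlapping windows, and a match of these 6 letters is a description of sequence and no measure of binding.

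Replicate 1 held 35453278 counts and replicate 2 held 34098259. Levels are given as CPM, counts scaled to these totals with TMM factors, and detection means that both libraries reach 1 CPM. All 5 epithelial markers were detected, with Epcam at 898 ± 4.77 CPM and Krt18 at 1217 ± 15.2 CPM (SD, n = 2). Erbb2 is 1 of these 5, and whether reads of the rat Her2/neu transgene were counted under it was not tested. Of the markers of other cells, 0 of 4 basal, 1 of 4 fibroblast (Pdgfra), 0 of 2 endothelial and 1 of 2 leukocyte genes (Cd68) were detected. The fibroblast genes Dcn and Lum, the endothelial gene Cdh5 and the leukocyte gene Ptprc had no count. The labels do not say whether the replicates were separate cultures, so every SD may be technical. In bulk RNA, fewer cells that express a gene and less RNA per cell cannot be told apart.

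All 10 genes were detected, against 37.7% of all genes in the table and 50.6% of the protein-coding ones. To compare genes with each other, CPM was divided by the kilobases of the union of annotated exons (CPM per kb). On that scale 7 of the 10 lay above 7.99 CPM per kb, the median of the 11001 detected protein-coding genes. The spread within the group was wide, since Nf2 was 71.6 times as abundant per kb as Tead2. Counting intervals below are 95% intervals from Poisson error of the counts alone.

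**Figure D1:**
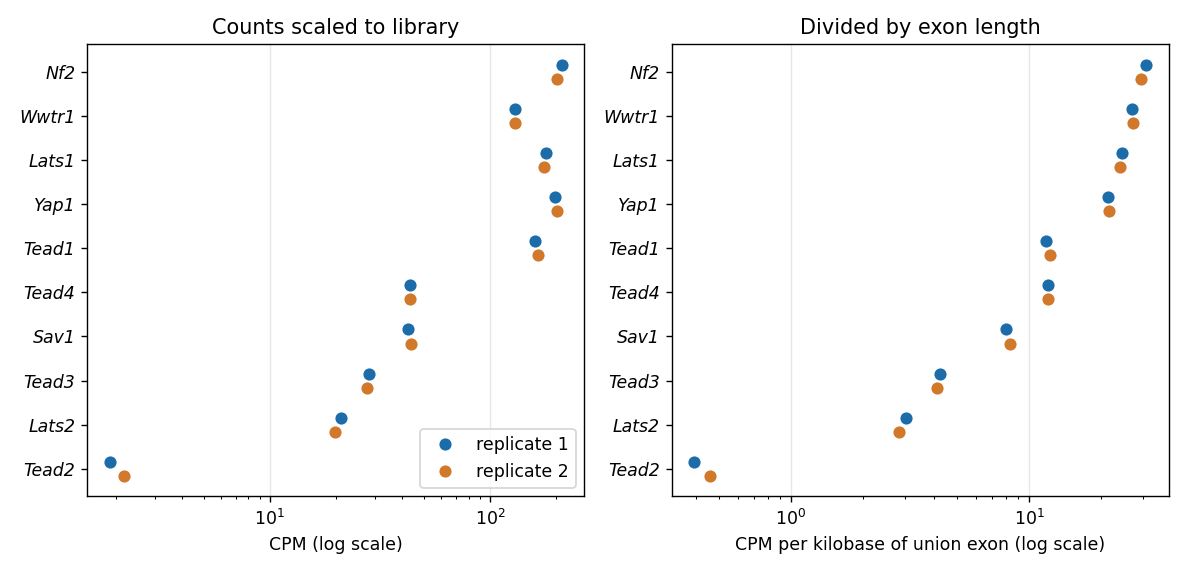
Levels of the 10 genes in both libraries (points, 1 per library), as CPM on the left and as CPM per kilobase of union exon on the right, both on log axes and ordered by the mean value per kb. The libraries lie close together for every gene, Nf2 leads and Tead2 is lowest on both scales, and Yap1 stands above Wwtr1 on the left and below it on the right.

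The coactivator genes were both well expressed. Yap1 (chromosome 9, 7931999 to 8004596, minus strand) had 199 and 201 CPM in replicates 1 and 2, from 7077 and 6820 counts. Wwtr1, the gene of TAZ (chromosome 3, 57455649 to 57575910, minus strand), had 130.0 and 130.1 CPM, from 4634 and 4413 counts. The libraries were thus nearly level for both genes, and the 2 genes did not overlap in CPM. Per kb, Yap1 stood at 21.4 and 21.7 and Wwtr1 at 27.2 and 27.2, so that TAZ transcripts led on this scale. The ratio of Yap1 to Wwtr1 per kb was 0.788 in replicate 1 (interval 0.760 to 0.818) and 0.798 in replicate 2 (0.768 to 0.829). Its direction rests on the length used: the union of Yap1 exons spans 9257 bases, but its longest transcript has 4171 bases, and per kb of longest transcript the ratio was 1.73 ± 0.0145 (SD, n = 2). Which transcripts these cells make cannot be read from counts per gene. Yap1 stood above 80.2% and Wwtr1 above 85.1% of detected protein-coding genes in CPM per kb of union exon.

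Among the TEAD genes, Tead1 and Tead4 stood at the same level per kb, Tead3 below them and Tead2 near the detection minimum. Tead1 (chromosome 7, 112679318 to 112906807, plus strand) had 159.7 and 165.9 CPM in replicates 1 and 2, the highest of the family. Tead4 (chromosome 6, 128224288 to 128300823, minus strand), known for its part in the trophectoderm of the early embryo, had 43.1 and 43.2 CPM. Their order on the CPM scale was the same in both libraries, but Tead1 has 13570 exon bases and Tead4 has 3598. Per kb, Tead1 had 11.8 and 12.2 and Tead4 had 12.0 and 12.0, so the libraries of these 2 genes overlapped and the genes did not differ beyond their spread. Tead3 (chromosome 17, 28331671 to 28350817, minus strand), a factor prominent in human placenta, had 28.3 and 27.7 CPM, or 4.22 and 4.12 CPM per kb. Tead2 (chromosome 7, 45215753 to 45233644, plus strand), best known from the early mouse embryo and neural progenitors, had 67 and 74 counts, or 1.88 and 2.18 CPM. It was the lowest of the 10 genes and stood above 2.94% of detected protein-coding genes per kb.

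Tead1 and Tead4 each made up 42.0% of the summed TEAD level per kb, with SDs of 0.685 and 0.432 percentage points (n = 2). Tead3 made up 14.6 ± 0.394% and Tead2 1.48 ± 0.140%. Tead4 was 2.88 ± 0.0479 times Tead3 per kb, and Tead3 was 9.90 ± 1.20 times Tead2. Per kb of longest transcript these ratios were 1.39 ± 0.0232 and 17.0 ± 2.06. The summed TEAD level was 28.4 and 28.8 CPM per kb in replicates 1 and 2, against which Yap1 and Wwtr1 together stood at 48.7 and 49.0. Coactivator transcripts therefore exceeded TEAD transcripts 1.71-fold (interval 1.66 to 1.77) in replicate 1 and 1.70-fold (1.65 to 1.76) in replicate 2, whereas with the mean length of coding transcripts the ratio was 0.938. The equal shares of Tead1 and Tead4 also depend on length, since Tead1 took 39.8% and Tead4 34.2% per kb of longest transcript, and 56.8% and 29.2% per kb of mean coding transcript.

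**Figure D2:**
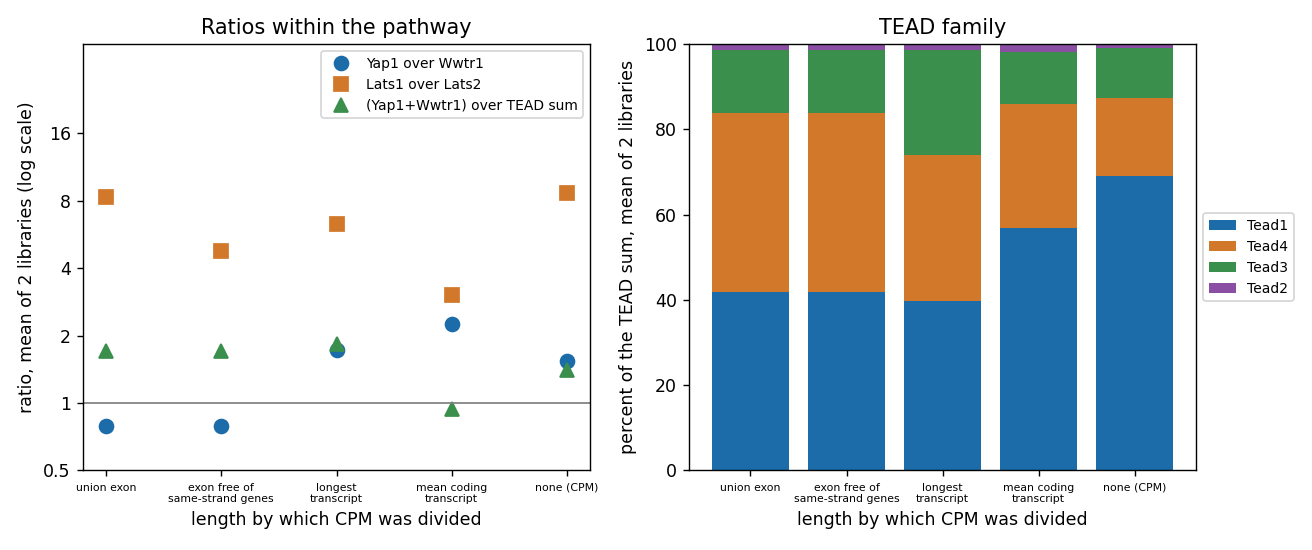
Ratios within the pathway (left, log axis, mean of 2 libraries, grey line at 1) and shares of the summed TEAD level (right, percent, stacked from Tead1 at the bottom to Tead2 at the top) under 5 choices of the length by which CPM was divided. Lats1 over Lats2 stays between 3.02 and 8.70, Yap1 over Wwtr1 crosses 1, and Tead2 stays at 1.76% or less.

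The LATS kinase genes differed strongly in level. Lats1 (chromosome 10, 7681214 to 7716460, plus strand) had 180.3 and 175.7 CPM in replicates 1 and 2, from 6425 and 5958 counts. Lats2 (chromosome 14, 57689662 to 57758388, minus strand) had 21.2 and 19.8 CPM, from 754 and 671 counts. Both libraries thus placed Lats1 far above Lats2, with no overlap. Per kb the ratio was 8.14 in replicate 1 (interval 7.55 to 8.78) and 8.48 in replicate 2 (7.83 to 9.19), and Lats1 supplied 89.3 ± 0.279% of the LATS level (SD, n = 2). Its size is uncertain because 2955 exon bases of Lats2, 42.4% of the total, also lie in exons of Gm49361, an annotated protein-coding gene on the same strand. Gm49361 had 0 counts in both libraries, and how reads that fall in 2 genes were counted is not given in the sources used here. When Lats2 was divided by its 4016 exon bases outside Gm49361, its level was 5.10 in place of 2.94 CPM per kb, and the ratio was 4.79 ± 0.139. With the mean length of coding transcripts it was 3.02 ± 0.0879, the lowest of the values computed.

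Nf2, the gene of the membrane-linked tumour suppressor merlin, was the most abundant of the 10 genes in CPM and per kb of union exon. It lies on chromosome 11 from 4765845 to 4849536 (minus strand) and had 212 and 202 CPM in replicates 1 and 2, or 31.1 and 29.6 CPM per kb. Per kb of longest transcript it came second after Yap1, at 43.9 against 47.9. Sav1 (chromosome 12, 69965012 to 69987002, minus strand) had 42.2 and 43.9 CPM, or 8.02 and 8.33 CPM per kb, close to the middle of the detected protein-coding genes. Nf2 exceeded Sav1 3.71 ± 0.226 times per kb of union exon, where the libraries of the genes did not overlap. The ratio was 6.37 ± 0.387 per kb of mean coding transcript and 2.58 ± 0.156 per kb of longest transcript. Exons of Atl1 on the opposite strand cover 1336 bases of Sav1 exons (25.4%). Atl1 had 237 and 189 counts and Sav1 had 1505 and 1488. Without the strand setting of the counting, reads of either gene in the shared bases cannot be told apart. Divided by exon bases free of genes on either strand, Nf2 stood at 2.77 ± 0.168 times Sav1.

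Ordered by CPM per kb, the genes ran Nf2, Wwtr1, Lats1, Yap1, Tead1, Tead4, Sav1, Tead3, Lats2 and Tead2. Neighbours in this order did not overlap between libraries, with the exception of Tead1 and Tead4. The first 4 stood within small steps, with ratios of 1.12 (Nf2 to Wwtr1), 1.12 (Wwtr1 to Lats1) and 1.13 (Lats1 to Yap1). These steps are smaller than the changes brought by another choice of length, so they carry no order beyond this scale. The step from Yap1 to Tead1 was 1.80 and that from Lats2 to Tead2 was 6.92 on this scale. Yap1 was 2.93 times Tead1 per kb of longest transcript and 1.14 times per kb of mean coding transcript, and Lats2 was 12.1 times Tead2 when exon bases shared with same-strand genes were left out. Tead2 was lowest, and Lats2 was among the 3 lowest, under each of the lengths tried and in CPM.

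The partners of the core kinases were all present, with 14 of 14 detected. Stk4, the gene of MST1, had 94.2 and 89.8 CPM and Stk3, the gene of MST2, had 60.8 and 60.6 CPM in replicates 1 and 2. Stk4 was thus higher than Stk3 in both libraries, and 1.58 ± 0.0490 times as abundant per kb of union exon. That direction rests on the length, since per kb of longest transcript Stk4 was 0.844 ± 0.0262 times Stk3. Mob1a and Mob1b, which encode the activating subunits of LATS kinases, had 193 and 192 CPM and 294 and 297 CPM. Per kb of union exon the order of these 2 genes turned, with Mob1b at 0.490 ± 0.00577 times Mob1a, and the ratio was 0.755 with the longest and 0.781 with the mean coding transcript. Wwc1, the gene of the scaffold protein KIBRA that acts beside merlin, led the list at 426 ± 13.6 CPM. It stood at 2.83 times Nf2 per kb of union exon but at 0.865 times Nf2 per kb of mean coding transcript. Its relative Wwc2 stood at 182 ± 2.50 CPM.

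Other kinase genes around the core were also well covered. Taok1, whose product activates MST kinases, had 283 ± 9.25 CPM, Taok2 had 94.6 ± 0.985 CPM, and Taok3 was the lowest partner gene at 12.3 ± 0.0761 CPM. The kinase genes Map4k4, Tnik and Mink1, whose products can phosphorylate LATS beside MST, stood at 257 ± 8.34, 139 ± 11.3 and 75.2 ± 0.447 CPM. Stk38 and Stk38l, which encode the NDR kinases that are the closest relatives of LATS, stood at 102 ± 2.67 and 75.3 ± 0.502 CPM. About 18.0% of the 50-base windows of Stk38l were shared with other transcripts, so its level is uncertain.

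Of the junction and scaffold regulators 14 of 17 were detected. In CPM, Ctnna1, the gene of alpha-catenin at adherens junctions, led at 667 ± 40.2 CPM. It was followed by the giant cadherin gene Fat1 at 506 ± 58.8 CPM and the angiomotin family gene Amotl1 at 392 ± 0.269 CPM. Per kb of union exon Ctnna1 also led, but Amotl1 stood above Fat1. Within the angiomotin family, whose products bind YAP, Amotl1 made up 72.9 ± 0.231% of the summed level per kb, Amotl2 25.1 ± 0.320% and Amot 1.94 ± 0.0894% (1.24% with mean coding transcripts). The family was thus carried by Amotl1 in both libraries. Fat4 had no count and Dchs1, the gene of a cadherin that binds FAT4, had 1 count in replicate 1 and 0 in replicate 2, while Wtip had 0 and 2 counts. With counting error alone, a count of 0 still allows 0.0842 CPM in replicate 1, and 0.0885 CPM in replicate 2.

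STRIPAK, a phosphatase complex that removes activating phosphate from MST kinases, had 10 of 10 genes detected. In CPM, its phosphatase subunit genes Ppp2ca and Ppp2r1a led at 259 ± 3.08 and 246 ± 1.26 CPM. The MST-binding adaptor gene Slmap was next at 217 ± 3.43 CPM. Per kb of union exon Ppp2r1a stood above Ppp2ca. Sike1 was lowest at 48.9 ± 1.45 CPM. The 3 striatin genes Strn, Strn4 and Strn3, which encode the scaffold, stood at 128 ± 0.282, 110.1 ± 6.76 and 97.5 ± 4.95 CPM.

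Of the TEAD cofactor and turnover genes 8 of 10 were detected. Vgll4, whose product competes with YAP for TEAD, was the main family member at 75.0 and 69.4 CPM in replicates 1 and 2. Vgll3 had 3.98 and 3.95 CPM, Vgll1 had 0 and 1 count, and Vgll2 had none. The summed TEAD level was 2.14 ± 0.140 times Vgll4 per kb of union exon, and 1.16 ± 0.0728 times per kb of longest transcript. Of the paralogous F-box genes whose products mark phosphorylated YAP and TAZ for degradation, Fbxw11 stood at 130.3 ± 3.22 CPM and Btrc at 25.3 ± 0.249 CPM. The adaptor genes Ywhaz (663 ± 28.3 CPM) and Ywhab (324 ± 12.1 CPM), whose products hold phosphorylated YAP in the cytoplasm, led this list, followed by the casein kinase gene Csnk1d at 153.8 ± 2.18 CPM.

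Known target genes of YAP and TAZ ranged from clear expression through low levels to no count. Of 22 listed, 15 (68.2%) were detected, against 37.7% of all genes and 50.6% of protein-coding ones. Another 6 had no count (Axl, Igfbp3, Foxf2, Ccdc80, Nuak2 and Rbms3) and Fjx1 had 19 and 13 counts. The most used reporters of YAP activity stood apart from each other: the matricellular gene Cyr61 had 87.0 and 88.5 CPM in replicates 1 and 2, Ankrd1 had 38.2 and 39.6 CPM, and Ctgf had 15.6 and 15.1 CPM. Cyr61 was 8.08 times Ctgf per kb of union exon and 4.93 times per kb of mean coding transcript. An annotated transcript on the opposite strand, Gm15270, which is not in the count table, covers 23.2% of the exon bases of Ctgf. The level of Ctgf is therefore uncertain. In CPM, which is not scaled to length, the leaders were Myof (511 ± 11.3 CPM), F3 (317 ± 2.67 CPM) and Dock5 (95.5 ± 2.67 CPM). Per kb of union exon F3 led and Cyr61 stood above Myof. Dock5 then lay close to the median of detected protein-coding genes, below Ankrd1 and Amotl2. Amotl2 (84.5 ± 1.40 CPM) and Ptpn14 (9.93 ± 0.471 CPM) are both targets and inhibitors of YAP, and like Lats2 they stand on 2 of the lists. Neither library was made with YAP or TAZ altered, so whether they drive these genes here was not tested.

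**Figure D3:**
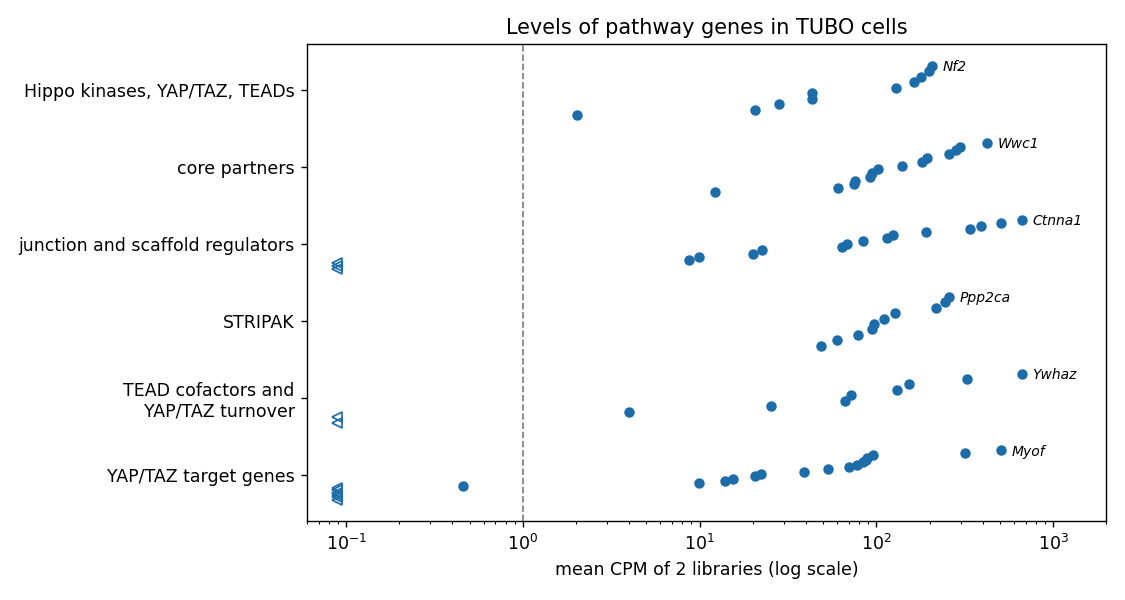
Mean CPM of 2 libraries (log axis) for each gene of 6 lists, 1 point a gene, sorted upward within its list, with the highest named. The dashed line marks the detection minimum of 1 CPM, and open triangles mark genes below the limit that a count of 0 allows, drawn at that limit; all partner and STRIPAK genes lie above the line, and 6 of the 22 target genes have no count.

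Over the 70 pathway genes beside the 10, 58 (82.9%) were detected, and the median was 78.4 ± 0.709 CPM. Across all detected genes the median was 35.3 ± 0.133 CPM, and the median of the 10 genes was 86.8 ± 0.297 CPM. Per kb the median was 13.1 ± 0.217 for the pathway genes and 12.0 ± 0.163 for the 10 genes, against 7.48 ± 0.0277 for all detected genes. The medians of the 70 pathway genes and of the 22 listed target genes include undetected ones, unlike that of all detected genes. For the target genes they were 21.4 ± 0.904 CPM and 6.31 ± 0.0392 CPM per kb, lower than for the 70. With undetected ones included, all protein-coding genes had medians of 1.34 ± 0.0674 CPM and 0.436 ± 0.0205 CPM per kb.

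Differences between the 2 libraries were small in these genes, and are given beside those of all genes tested. A two-sided exact binomial test of each gene, given the effective library sizes and adjusted by Benjamini-Hochberg over 13336 genes, called 0 of the 10, against 8.01% of all genes tested (3.59% higher and 4.42% lower in replicate 2). The test compares these libraries with counting error only. With only 10 genes, a share of 0 cannot be told from that of all genes. Unadjusted, 2 of the 10 had p under 0.05, Nf2 and Tead1, as did 19.5% of all genes. Nf2 was lower in replicate 2 by the largest margin relative to its error, with a log2 ratio of replicate 2 to replicate 1 of -0.069 and an adjusted exact binomial p of 0.0534. This gene sits at the threshold, since DESeq2 size factors gave an adjusted exact binomial p of 0.0295. Tead1 had a log2 ratio of 0.055 with an adjusted exact binomial p of 0.235. The log2 ratios of the others ran from -0.096 (Lats2) to 0.21 (Tead2, adjusted exact binomial p of 0.761). The median absolute log2 ratio of the 10 was 0.046, against 0.072 over all genes tested. These medians are not matched for level, since 2763 tested genes but only 1 of the 10 lay at 1 to 10 CPM, where counting error is larger. Of genes at 100 to 300 CPM, a band that holds 5 of the 10, the test called 21.9%. edgeR's exact test with the common dispersion called 0 of the 10, against 0.142% of all genes, and 0 of the 10 had an unadjusted p under 0.05 there. That dispersion was estimated from these same libraries taken as replicates, so it contains the difference tested, and a gene it does not call is not shown to be equal in both.

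Among the 59 other pathway genes tested, 4 were called higher in replicate 2 and 7 lower, 18.6% in all, against 8.01% of all genes tested. Such shares depend on level, since the test called 5.15% of genes at 10 to 100 CPM and 21.9% at 100 to 300 CPM. The called genes Fat1, Ctnna1, Ywhaz, Myof, Wwc1 and Ywhab lay above 300 CPM, where the share of all genes was not computed. The 18.6% is therefore not matched for level. Fat1 had the largest called difference, at 547 CPM in replicate 2 and 464 CPM in replicate 1 (log2 ratio 0.24, adjusted exact binomial p of 1.02e-50). Tnik (0.17), Taok1 (0.067) and Myof (0.045) were the others that were higher. Ctnna1, Strn4, Strn3, Ywhaz, Ywhab, Map4k4 and Wwc1 were lower, with log2 ratios from -0.13 (Strn4) to -0.065 (Wwc1). edgeR's exact test called none of the genes named here, with an adjusted p of 0.117 for Fat1.

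**Figure D4:**
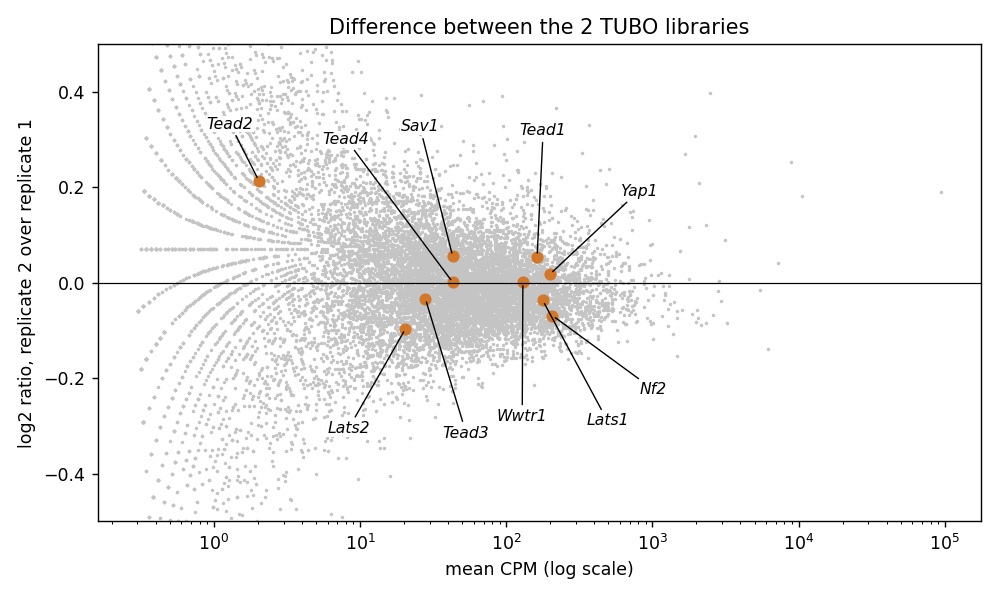
Log2 ratio of replicate 2 to replicate 1 (vertical axis) against mean CPM (log axis) for 13336 tested genes in grey, with the 10 genes in orange. The 10 lie between -0.096 and 0.21, and 591 genes fall beyond the vertical axis.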

How the data were processed

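RNA from 2 libraries of 1 group of TUBO cells was measured. The authors deposited raw counts per gene symbol. Tools listed in the submitters' processing notes, without roles, are Cell Ranger 3.0.0, featureCounts, STAR 2.7.9a, FastQC 0.11.9 and R 4.1.1, and the build is mm10. The sources used here do not give the annotation release, the strand setting or the handling of ambiguous reads.

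Columns were matched to samples by replicate number. Depth was 35453278 and 34098259 counts, giving floors of 0.0842 and 0.0885 CPM for 3 counts. CPM used TMM factors (1.01 and 0.995; edgeR 4.0.16, R 4.3.3). Lengths came from GENCODE M21 (GRCm38, the assembly of mm10), matched for 98.1% of symbols. Transcript windows of 50 bases were compared between genes; coding sequences were aligned with Biopython 1.88 and MAFFT 7.526, and motif shares used RefSeq promoter windows. filterByExpr kept 13336 genes for the exact binomial test (SciPy 1.17.1). The test was run on simulated counts with counting error alone, the error it assumes, so that run cannot show how it behaves with wider spread. Between these libraries chi-square over degrees of freedom was 5.00. DESeq2 1.42.0 gave alternative size factors. Intervals on ratios are Poisson intervals on the log scale and cover counting error only, as reads carry no molecular identifiers.

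The 10 genes and the gene lists were chosen with earlier results of these data known. Named genes are the 10, all core partners, the 3 highest and 2 lowest of each list and list members without a count, except 1 gene that is not reported here; Amotl2, Amot, Ptpn14, Dchs1, Wtip, Cyr61, Ankrd1, Ctgf, Csnk1d, Vgll3, Vgll4, Btrc, Fbxw11, Strn, Strn3, Strn4 and Slmap, where outside that rule, and the genes called between libraries were chosen after their values were seen.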

Additional observations from a re-analysis of the deposited data

How the results depend on the processing

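Ratios depended on the gene length used, and which transcripts are present was not measured. With the longest transcript, the mean coding transcript and no length, Yap1 over Wwtr1 was 1.73, 2.24 and 1.54, each turned round from 0.793 with union exons. Lats1 over Lats2 was 6.26, 3.02 and 8.70, against 8.31, and 4.79 with exon bases free of same-strand genes or of genes on either strand, alternatives added after seeing the data. YAP/TAZ over TEADs was 1.84, 0.938 and 1.40, against 1.71. The Tead1 share was 39.8%, 56.8% and 69.0%, Tead3 24.6%, 12.3% and 11.9%, and Tead4 34.2%, 29.2% and 18.3%, and Tead2 was 1.76% with mean transcripts and 0.860% with no length. Chosen after seeing the data, the same lengths turned round Stk4 over Stk3 (0.844 with the longest transcript, against 1.58), Wwc1 over Nf2 (0.865 with the mean coding transcript, against 2.83) and Mob1b over Mob1a (1.54 with no length, against 0.490). The cause beyond the lengths themselves was not tested.

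Leaving out each replicate in turn gave 0.788 to 0.798 for Yap1 over Wwtr1, 8.14 to 8.48 for Lats1 over Lats2, 1.70 to 1.71 for YAP/TAZ over TEADs, and 41.5% to 42.4%, 1.38% to 1.58%, 14.3% to 14.9% and 41.7% to 42.3% for the Tead1, Tead2, Tead3 and Tead4 shares. Detection counts stayed within 1.5 times under other minimums (0.5 and 5 CPM), scalings and either library alone.

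The binomial test called 1068 genes, and edgeR's exact test, whose dispersion was estimated from these same 2 libraries, called 19, all higher in replicate 2. Of the binomial calls 44.9% were higher in replicate 2, against 28.7% with total counts and 37.6% with DESeq2 size factors. Members called were 1 (Nf2) with total counts, with DESeq2 size factors and with a filter of 10 CPM, and 0 otherwise; the Nf2 adjusted exact binomial p ranged from 0.00836 to 0.0721 over the binomial alternatives. Totals without Gm26917 and Gm42418 raised all levels 1.12-fold. No paired analysis was possible because there is 1 group.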
